A study of Mus musculus with 15 samples.

Results

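The genes described here are 35 genes of the osteoblast, the bone-forming cell, and of the chondrocyte, the cell that makes cartilage, collagens left out. They were chosen by gene symbol, and a gene with several probe sets was read from the brightest of them, on average over the arrays. This list and the wider list below were chosen with earlier results of these data known. Their shares of called genes are therefore descriptions, not independent of that choice. Of the 35 genes, 32 had a probe set named for them alone, among 18193 genes measured in all. Spp1, Bglap and Enpp1 had none in the annotation used and were not analysed here.

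Runx1, Runx2 and Runx3 are the mouse members of a family of transcription factors that bind the same short DNA core through their Runt domain, together with the partner Cbfb. Runx2 is the factor without which no osteoblasts form, and it drives chondrocytes towards hypertrophy, in part through Ihh. Runx1 is best known from blood formation, and Runx3 from neurons, T cells and stomach epithelium. Known bone targets of Runx2 include Sp7, Alpl, Spp1, Ibsp, Bglap, Ihh and Tnfrsf11b, and the comparisons ask which skeletal genes respond when a Runx factor is put into a fibroblast.

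The cells were NIH3T3, an established mouse embryonic fibroblast line, transduced with the retroviral vector pBabe-puro, which carries puromycin resistance. A constitutive mouse gene was carried by the Runx1, Runx2 and Runx3 lines, as they are called here (2 arrays each), and a further line carried constitutive human RUNX1 (1 array). The inducible line carried human RUNX1-ER, a fusion to the oestrogen receptor's ligand-binding part that 4-hydroxytamoxifen (4-OHT) activates, and it was measured induced (2 arrays) and uninduced (2 arrays). Cells with the empty vector were measured with 4-OHT (2 arrays) and without it (2 arrays). The cells had reached confluence over 7 days, and for 24 h before RNA extraction they received 0.2% ethanol, alone or with 4-OHT (0.1 mM as the labels give it). The labels do not say which of the 2 treatments the constitutive lines received, nor whether a line is 1 clone. Replicates are numbered biological replicates, but nothing says that they came from separate transductions or cultures, so a p-value covers only the variation among the arrays at hand. In such bulk RNA, fewer cells expressing a gene and less of its RNA per cell cannot be told apart.

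Total RNA was hybridised to 15 Affymetrix mouse arrays of 45101 probe sets, and the values are log2 intensities summarised by RMA. Array medians over all probe sets ran from 3.69 to 3.75 and averaged 3.73, and a gene whose mean was below that in all 8 groups is called dim here, with no level read from it. The Runx1 line carried its gene: the Runx1 probe set read 9.11 and 9.30 there, against 4.56 to 4.75 in vector cells. It read 4.69 on the human RUNX1 array, 4.63 to 4.71 in induced and 4.67 to 4.88 in uninduced RUNX1-ER cells. The human constructs were thus not checked by it. The brighter Runx3 probe set read 3.96 and 4.46 in the Runx3 line, against 4.35 to 4.54 in vector cells. Whether that probe set lies within the construct was not known, so it checks nothing, and no probe set carried the name Runx2 alone. The 8 fibroblast markers were bright in every group, with gene means from 7.24 to 13.3. The 5 measured markers of mature osteoblasts and osteocytes had gene means from 3.09 to 4.97. Of the 6 chondrocyte markers, Sox9 was bright and 3 were dim. Among the markers of other cells, 1 of 2 adipocyte, 2 of 3 muscle, 2 of 3 leukocyte, 3 of 3 endothelial and 1 of 4 epithelial genes were dim. Differences were tested with limma over all genes, and a gene was called where its Benjamini-Hochberg adjusted p was under 0.05.

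Most of the skeletal genes were near the low end of the array's range in these fibroblasts, with or without a Runx factor. Dim in every group were 9 of the 32 measured genes, and 25 had no group mean as high as 5. Ibsp and Tnfrsf11b escaped the dim label only through the single human RUNX1 array. Only 6 genes averaged above 5: Sox9, Mgp, Ank, Atf2, Fgfr1 and Fgfr2. In at least 1 of the 13 comparisons, 6 of the 32 genes were called, a share close to the 17.7% of all genes called in at least 1 comparison. They were Phex, Mgp, Sox9, Alpl, Gli1 and Comp, none of them dim. A low gene can pass that cut through 1 group where it is high, so passing does not place a call above background. Alpl averaged 3.63 in the Runx1 line, 3.67 in vector and 3.58 in uninduced cells, below the array's median. Phex was below it in the Runx2 line (3.53), the Runx3 line (3.50) and induced cells (3.37). RMA compresses differences among dim probe sets, so a log2 difference that ends near the array's median may understate the change in RNA. Whether it did so here was not tested.

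In the Runx1 line, Sox9 rose and Phex and Mgp fell against vector cells. That is 3 of 32 genes (9.38%), beside 1.7% of all genes called in that comparison (0.973% higher, 0.726% lower). The same 3 genes were called in the same directions in the Runx2 line, beside 2.57% of all genes (0.923% higher, 1.65% lower). In the Runx3 line, Alpl, Mgp, Sox9 and Gli1 rose and Phex fell, which is 5 of 32 genes (15.6%) beside 9.37% of all genes (3.97% higher, 5.4% lower). The median log2 difference of the 32 genes was -0.05 in the Runx1 line, -0.03 in the Runx2 line and 0.01 in the Runx3 line, against -0.01, -0.01 and 0.00 over all genes. In each line the called genes moved in both directions. At an unadjusted p under 0.05 there were 7, 5 and 8 of the 32 genes in the same order of lines, beside 9.73%, 12.5% and 19.7% of all genes. These 3 comparisons share the vector arrays. As the genes were listed with earlier results known, a share above that of all genes is not independent support.

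**Figure D1:**
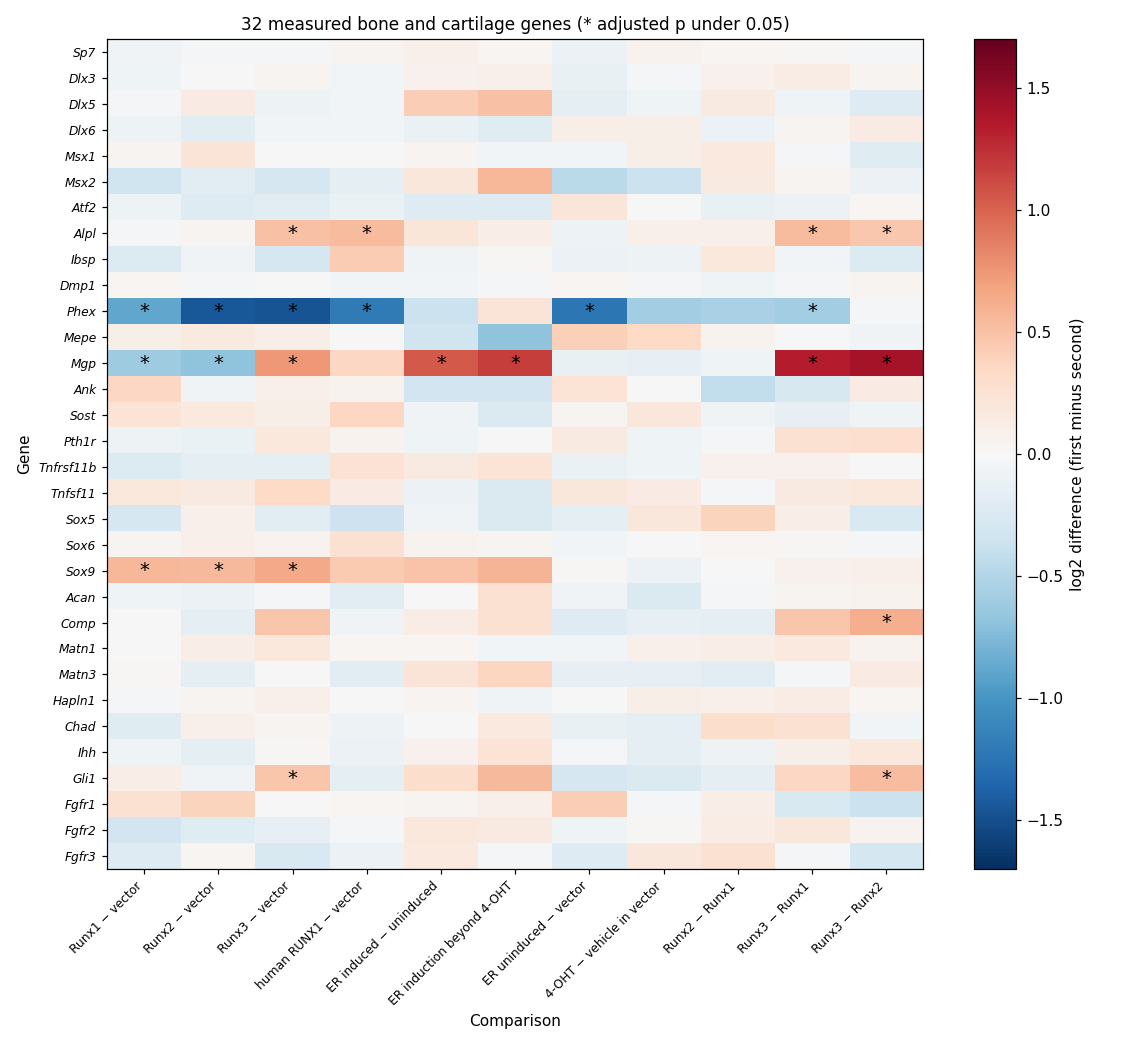
Log2 differences of the 32 measured bone and cartilage genes (down the page, grouped by role) in 11 comparisons (across), first-named group minus second, on a colour scale where red is higher in the first-named group. Stars mark an adjusted p under 0.05 over all genes, and they fall on Phex, Mgp, Sox9, Alpl, Gli1 and Comp.

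Phex encodes a membrane peptidase of osteoblasts and osteocytes that restrains Fgf23, and its loss causes hypophosphataemic rickets in the mouse and in humans. Its probe set read 3.98 and 4.20 in the Runx1 line, 3.30 and 3.77 in the Runx2 line and 3.51 and 3.49 in the Runx3 line, against 5.19 and 4.75 in vector cells. The single human RUNX1 array read 3.77, against the same vector values. Induced RUNX1-ER cells read 3.38 and 3.36, uninduced RUNX1-ER cells 3.67 and 3.81, and vector cells with 4-OHT 4.31 and 4.44. Every array with a Runx construct was thus below all 4 vector arrays, with or without 4-OHT, and the uninduced fusion was among the low ones. The Runx3 line differed from vector cells by a log2 change of -1.47 (SE 0.16, limma adjusted p = 5.27e-05), a level of 0.361 of vector. The average of the 3 lines differed by -1.26 (SE 0.13, adjusted p = 5.49e-05), and the Runx2 line by -1.44 (SE 0.16, adjusted p = 0.000219). The Runx1 line (-0.88, adjusted p = 0.0117) and human RUNX1 (-1.20, adjusted p = 0.00278) were also called.

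For Phex, the vector arrays with 4-OHT read below those without it, a difference that was not called. Vector cells with 4-OHT differed from those without by a log2 value of -0.60, at an unadjusted p of 0.00259 and an adjusted p of 0.57. Set against the vector cells with 4-OHT, the difference of the Runx1 line was -0.29 (adjusted p = 0.455) and no longer called. The Runx1 call was also lost without Runx1 replicate 1 (adjusted p = 0.123), without vector replicate 1 (0.148) and with the mean of the gene's probe sets (0.102). With 4-OHT on both sides, induced RUNX1-ER cells had 0.498 of the vector level (adjusted p = 0.0032). Without 4-OHT, uninduced RUNX1-ER cells differed from vector cells by -1.23 (adjusted p = 0.0238). Phex was the 1 skeletal gene called there, 3.12% of the 32, beside 0.044% of all genes. That call was lost without either uninduced replicate (adjusted p = 0.0636 and 0.19) and without vector replicate 1 (0.202). Within the RUNX1-ER line, induction changed Phex by -0.37 (adjusted p = 0.393), which was not called. Phex's other probe set, with a mean below the array's median, differed by -0.01, -0.26 and -0.32 in the Runx1, Runx2 and Runx3 lines and was called in none. With the mean of both, the differences of the Runx2 and Runx3 lines were -0.85 and -0.89.

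Mgp encodes matrix Gla protein, an inhibitor of calcification made by chondrocytes and vascular smooth muscle. The lines differed in its direction against vector cells. Its probe set read 7.60 and 7.87 in the Runx1 line, 7.66 and 7.65 in the Runx2 line and 9.21 and 8.93 in the Runx3 line, against 8.48 and 8.19 in vector cells. The Runx1 and Runx2 arrays were all below the vector arrays, and the Runx3 arrays were above them. Human RUNX1 read 8.68 on its array. Induced RUNX1-ER cells read 9.24 and 9.24, against 8.12 and 8.29 in uninduced cells, and vector cells with 4-OHT read 8.13 and 8.27. The induced cells were at the level of the Runx3 line, while the uninduced arrays read 8.12 and 8.29, close to the 4 vector arrays at 8.13 to 8.48.

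The direct comparisons between lines gave the clearest Mgp differences. On the log2 scale the Runx3 line stood 1.34 above Runx1 cells (SE 0.13, adjusted p = 3.81e-05 in limma), which is 2.52-fold. It exceeded the Runx2 line by 1.41 (SE 0.13, adjusted p = 8.67e-05), or 2.66-fold. Induced RUNX1-ER cells exceeded vector cells with 4-OHT by 1.04 (SE 0.13, adjusted p = 0.000626). Against their own uninduced cells the difference was also 1.04 (adjusted p = 0.000894), or 2.05-fold. Against vector cells, Mgp was higher in the Runx3 line by 0.73 (adjusted p = 0.00262), lower in the Runx1 line by -0.60 (0.0328) and lower in the Runx2 line by -0.68 (0.0122). Human RUNX1, at 0.35 above vector (adjusted p = 0.233), was not called. The fall in the Runx1 line was lost without Runx1 replicate 1 (adjusted p = 0.274), without vector replicate 1 (0.339) and against the vector cells with 4-OHT (-0.47, 0.0849). The fall in the Runx2 line was lost without Runx2 replicate 1 (0.0763), Runx2 replicate 2 (0.055) or vector replicate 1 (0.175). The rise in the Runx3 line and on induction was called under every alternative run, with adjusted p-values up to 0.0444 and 0.0178.

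In the inducible line, Mgp was the 1 skeletal gene called, 1 of 32 (3.12%), beside 1.92% of all genes. The change on induction was also larger than that of 4-OHT in vector cells. It was 1.04 in RUNX1-ER cells, against -0.13 in vector cells, a difference of 1.17 (SE 0.18, limma adjusted p = 0.00878). In that comparison too Mgp was the 1 skeletal gene called (3.12%), beside 0.605% of all genes. Without vector replicate 1 the difference was 1.03 (adjusted p = 0.0595) and was not called. Against vector cells with 4-OHT, induced cells were higher in Mgp and Sox9 and lower in Phex (9.38%, beside 4.16% of all genes). In vector cells, 4-OHT led to no call among the 32 genes and in 0% of all genes, with 2 of the 32 genes at an unadjusted p under 0.05, beside 6.73% of all genes.

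**Figure D2:**
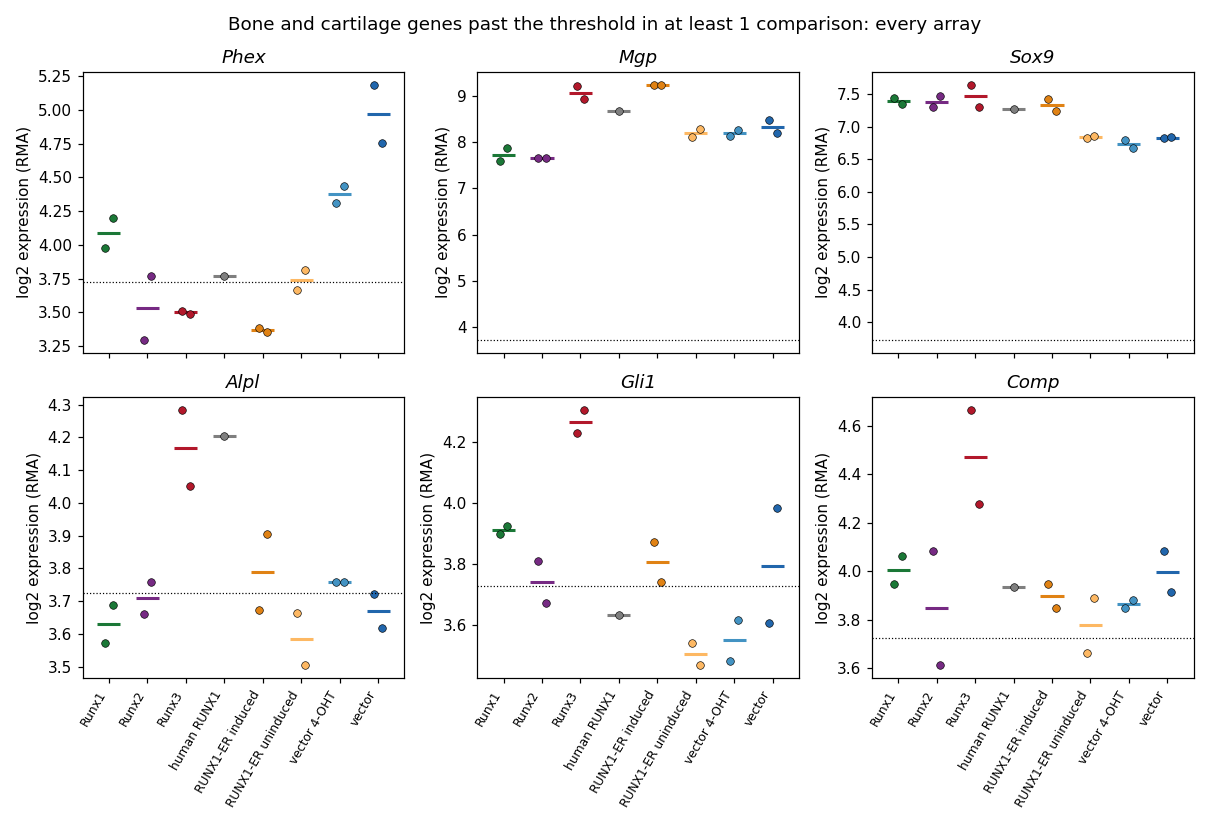
RMA log2 expression of the skeletal genes called in at least 1 comparison, on each array (points) with the group mean (bar), for the Runx1, Runx2 and Runx3 lines, human RUNX1, induced and uninduced RUNX1-ER cells, and vector cells with and without 4-OHT from left to right. The dotted line is the median of all probe sets, 3.73. Phex was lower on every array with a Runx construct than in vector cells, and Mgp was near 9 in the Runx3 line and in induced cells but under 8 in the Runx1 and Runx2 lines.

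Sox9 encodes the transcription factor that commits cells to cartilage and switches on the genes of its matrix. Its brightest probe set read 7.44 and 7.35 in the Runx1 line, 7.30 and 7.47 in the Runx2 line and 7.64 and 7.31 in the Runx3 line, against 6.82 and 6.84 in vector cells. Human RUNX1 read 7.28. Induced RUNX1-ER cells read 7.42 and 7.24, against 6.83 and 6.86 in uninduced cells, and vector cells with 4-OHT read 6.80 and 6.67. The arrays with a constitutive or an induced Runx factor did not overlap with the vector and uninduced arrays. The average of the 3 lines was 0.59 log2 units above vector cells (SE 0.10, adjusted p = 0.00244 in limma). The Runx3 line exceeded them by 0.64 (SE 0.12, adjusted p = 0.00314), or 1.56-fold, and induced RUNX1-ER cells exceeded vector cells with 4-OHT by 0.60 (SE 0.12, adjusted p = 0.0123).

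The Sox9 difference was of similar size in the other lines, with less support. It was 0.57 in the Runx1 line (limma adjusted p = 0.0272) and 0.55 in the Runx2 line (0.0234). Both calls were lost when any 1 of the 4 arrays compared was left out, with adjusted p-values from 0.119 to 0.196 for Runx1 and from 0.0531 to 0.169 for Runx2. The call on the average was lost without vector replicate 1 (adjusted p = 0.0517). The call of induced cells against vector cells with 4-OHT was lost without induced replicate 1 (0.135) or 4-OHT vector replicate 2 (0.0975). Human RUNX1 (0.45, adjusted p = 0.0827) and induction within the RUNX1-ER line (0.49, adjusted p = 0.0583) missed the threshold. Induction beyond the effect of 4-OHT in vector cells was 0.58 (adjusted p = 0.186). Between lines, Sox9 differed by 0.08 for Runx3 against Runx1 (95% interval -0.18 to 0.33), 0.09 for Runx3 against Runx2, and by -0.01 between the Runx2 and Runx1 lines, none of them called. A further Sox9 probe set with a mean above the array's median differed by 0.60, 0.55 and 0.79 in the Runx1, Runx2 and Runx3 lines, each called over all probe sets. In induced cells it differed by 0.55 from uninduced cells and by 0.81 from vector cells with 4-OHT, both called over all probe sets. Its induction beyond 4-OHT in vector cells was 0.69, not called. A dim Sox9 probe set differed by 0.17, 0.23 and 0.21 in the 3 lines and by 0.11 on induction, not called.

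Cartilage genes that Sox9 is known to switch on were not called with it in the Runx lines against vector cells. Acan, the large proteoglycan of cartilage, differed by -0.07, -0.10 and -0.03 in the Runx1, Runx2 and Runx3 lines. Chad, which encodes the leucine-rich matrix protein chondroadherin, differed by -0.21, 0.09 and 0.05. Matn1, Matn3 and Hapln1, which encode matrilins and the link protein that ties aggrecan to hyaluronan, were dim in every group. Sox5 and Sox6, the partners of Sox9 in chondrocytes, had group means of 4.72 to 5.27 and 4.11 to 4.41 and were called in no comparison. Of the 6 cartilage matrix genes, 1 was called in any comparison, and of the 3 cartilage transcription factors, 1 was, beside the 17.7% of all genes.

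That matrix gene was Comp, cartilage oligomeric matrix protein, which binds collagen fibrils. Its probe set read 4.67 and 4.28 in the Runx3 line, against 4.09 and 3.61 in the Runx2 line, 3.95 and 4.06 in the Runx1 line, and 4.08 and 3.91 in vector cells. Both Runx3 arrays were above the other arrays of these groups. The Runx3 line exceeded the Runx2 line by 0.62 (SE 0.16, limma adjusted p = 0.047), or 1.54-fold. That call was lost without Runx2 replicate 2 (adjusted p = 0.253) or Runx3 replicate 1 (0.296). Against vector cells the difference was 0.47 (adjusted p = 0.0874), not called.

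Alpl encodes tissue-nonspecific alkaline phosphatase, which frees phosphate for mineral and is the usual stain for osteoblasts. Its probe set read 4.28 and 4.05 in the Runx3 line, 3.57 and 3.69 in the Runx1 line and 3.66 and 3.76 in the Runx2 line, against 3.72 and 3.62 in vector cells. Human RUNX1 read 4.20. Induced RUNX1-ER cells read 3.67 and 3.91, against 3.67 and 3.50 in uninduced cells, and vector cells with 4-OHT read 3.76 on both arrays. The Runx3 and human RUNX1 arrays were the highest, and the rest lay around the array's median. The Runx3 line exceeded the Runx1 line by 0.54 (SE 0.11, limma adjusted p = 0.0101) and vector cells by 0.50 (SE 0.11, adjusted p = 0.0121), or 1.41-fold. Human RUNX1 exceeded vector cells by 0.53 (SE 0.14, adjusted p = 0.0333). The Runx2 line did not differ detectably from vector cells in Alpl, with a difference of 0.04 (95% interval -0.20 to 0.28), nor did the Runx1 line, with -0.04 (-0.28 to 0.20).

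The Alpl calls rested on few arrays. Without Runx3 replicate 1 the difference from vector cells was 0.38 (limma adjusted p = 0.118), and without vector replicate 2 it was 0.45 (0.108). The difference from the Runx1 line was lost without Runx1 replicate 1 (0.0942) or Runx3 replicate 1 (0.102). For human RUNX1, which has a single array whose spread is taken from the other groups, it was lost without vector replicate 1 (0.0862) or replicate 2 (0.128). Alpl and Phex were the skeletal genes called for human RUNX1, 2 of 32 (6.25%) beside 7.33% of all genes.

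Of the 7 known bone targets of Runx2 named above, 5 were measured, and Alpl was the 1 called in any comparison, beside the 17.7% of all genes. Sp7, osterix, the factor that acts after Runx2 in the osteoblast, read between 4.14 and 4.41 on all 15 arrays, including 4.27 and 4.28 in the Runx2 line against 4.19 and 4.39 in vector cells. Its difference was -0.06 in the Runx1 line (95% interval -0.26 to 0.15), -0.02 in the Runx2 line (-0.22 to 0.19) and -0.04 in the Runx3 line (-0.25 to 0.17). Ibsp, bone sialoprotein, read 3.43 and 3.39 in the Runx2 line and 3.35 and 3.01 in the Runx3 line, against 3.47 and 3.46 in vector cells. Its differences were -0.24, -0.06 and -0.28 in the Runx1, Runx2 and Runx3 lines, none called (limma adjusted p = 0.136 for Runx3). The human RUNX1 array read 3.89, or 0.43 above vector cells (adjusted p = 0.0683). Tnfrsf11b, osteoprotegerin, the decoy receptor that restrains osteoclasts, differed by -0.24, -0.17 and -0.16, and Ihh, the hedgehog ligand of growth plate chondrocytes, was dim. Levels this low limit what the arrays could show, and no change was detectable in Sp7, Ibsp, Tnfrsf11b and Ihh. Outside the human RUNX1 array (3.89 and 3.86), every group mean of Ibsp and Tnfrsf11b was below the array's median, as for Ihh.

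**Figure D3:**
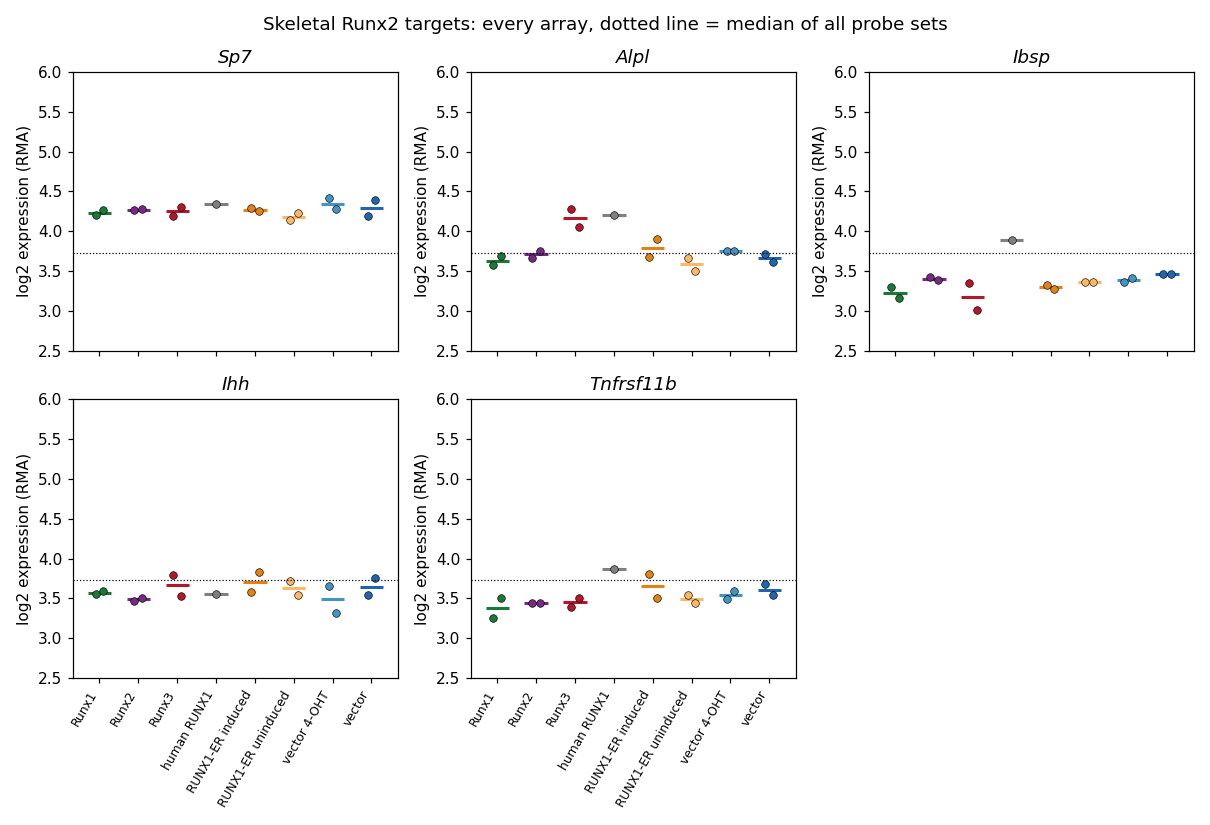
RMA log2 expression of the 5 measured known skeletal targets of Runx2 on each array (points) with the group mean (bar), with the same group order and dotted line as in the plot of the responding genes. Alpl in the Runx3 line and human RUNX1 reaches above 4, whereas Sp7, Ibsp and Tnfrsf11b were not called in any line, and Ihh was dim. Ibsp and Tnfrsf11b have a group mean above the dotted line only for human RUNX1.

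The other regulators and matrix genes of bone were called in none of the comparisons, beside 17.7% of all genes called in at least 1. The 7 osteoblast transcription factors include, beside Sp7, the homeobox genes Dlx3, Dlx5, Dlx6, Msx1 and Msx2 and the bZIP factor Atf2. Dlx5 and Dlx6 were dim, and Atf2 had group means from 7.71 to 8.13. Their log2 differences from vector cells ran from -0.34 to 0.04 in the Runx1 line, from -0.21 to 0.21 in the Runx2 line and from -0.29 to 0.05 in the Runx3 line. In the Runx2 line Msx1 (0.21) and Atf2 (-0.21) had an unadjusted p under 0.05, with limma adjusted p-values of 0.256 and 0.366. Among the matrix genes, Mepe, an osteocyte phosphoglycoprotein, had group means from 4.01 to 4.43, and Dmp1, which regulates mineral in dentine and bone, was dim. Of the genes by which osteoblasts and osteocytes signal, Pth1r, the parathyroid hormone receptor, and Tnfsf11, the osteoclast-inducing ligand RANKL, were dim. Sost, the osteocyte's Wnt antagonist sclerostin, had group means from 3.67 to 4.03.

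Ank, a membrane protein that lets pyrophosphate, an inhibitor of mineral, out of the cell, had group means from 9.12 to 9.56. It read 9.45 and 9.67 in the Runx1 line, 9.12 and 9.16 in the Runx2 line and 9.26 and 9.31 in the Runx3 line, against 9.26 and 9.15 in vector cells. The Runx1 arrays were the 2 highest of the constitutive lines. The Runx1 line differed from vector cells by 0.36 (limma adjusted p = 0.103), and the Runx2 line from the Runx1 line by -0.42 (adjusted p = 0.0528). Neither was called in the main fit. Ank has 1 probe set, so averaging probe sets leaves its own values unchanged. The second difference was called when the probe sets of other genes were averaged, among genes with a mean above 5, and with a variance trend. Uninduced RUNX1-ER arrays read 9.37 and 9.51, induced ones 9.09 and 9.15, and vector cells with 4-OHT 9.23 and 9.18.

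Of the 5 hedgehog and FGF genes, Gli1 was the 1 called in any comparison, a share near the 17.7% of all genes. Gli1 is a transcription factor whose own RNA is the usual readout of hedgehog signalling. Its probe set read 4.23 and 4.31 in the Runx3 line, 3.90 and 3.92 in the Runx1 line and 3.81 and 3.67 in the Runx2 line, against 3.60 and 3.98 in vector cells. The Runx3 arrays were the 2 highest of all 15, and the vector arrays spanned most of the remaining range. The Runx3 line exceeded vector cells by 0.47 (SE 0.12, limma adjusted p = 0.0231), or 1.39-fold, and the Runx2 line by 0.53 (SE 0.12, adjusted p = 0.0279). The call against vector was lost without Runx3 replicate 1 (adjusted p = 0.0684), Runx3 replicate 2 (0.143) or vector replicate 1 (0.28 in log2, 0.254). The call against Runx2 was lost without any 1 of its 4 arrays, with adjusted p-values from 0.069 to 0.166. Fgfr1, Fgfr2 and Fgfr3, the FGF receptors whose mutations cause skeletal dysplasias, had group means of 7.38 to 7.88, 5.60 to 6.04 and 3.70 to 4.15 and were not called.

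Ptch1, the hedgehog receptor and itself a hedgehog target, is in a wider list of 42 bone and cartilage genes, 37 of them measured. It read 7.68 and 7.71 in the Runx3 line, against 6.45 and 6.47 in vector cells, while the Runx1 and Runx2 arrays lay between 6.04 and 6.50. It was thus higher in both Runx3 arrays than in any other of the 15, human RUNX1 at 7.03 being next. Ptch1 exceeded vector cells in the Runx3 line by 1.23 (SE 0.13, limma adjusted p = 4.61e-05), or 2.35-fold. Its other probe sets differed there by 0.05 and 0.24 and were not called, and with the mean of all its probe sets the difference was 0.51. Smo, the signal transducer that Ptch1 restrains, differed in the Runx3 line by -0.09, and the mediators Gli2 and Gli3 by -0.23 and -0.22, none called. Hhip, another hedgehog pathway gene of the wider list, was dim in every group and not called.

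**Figure D4:**
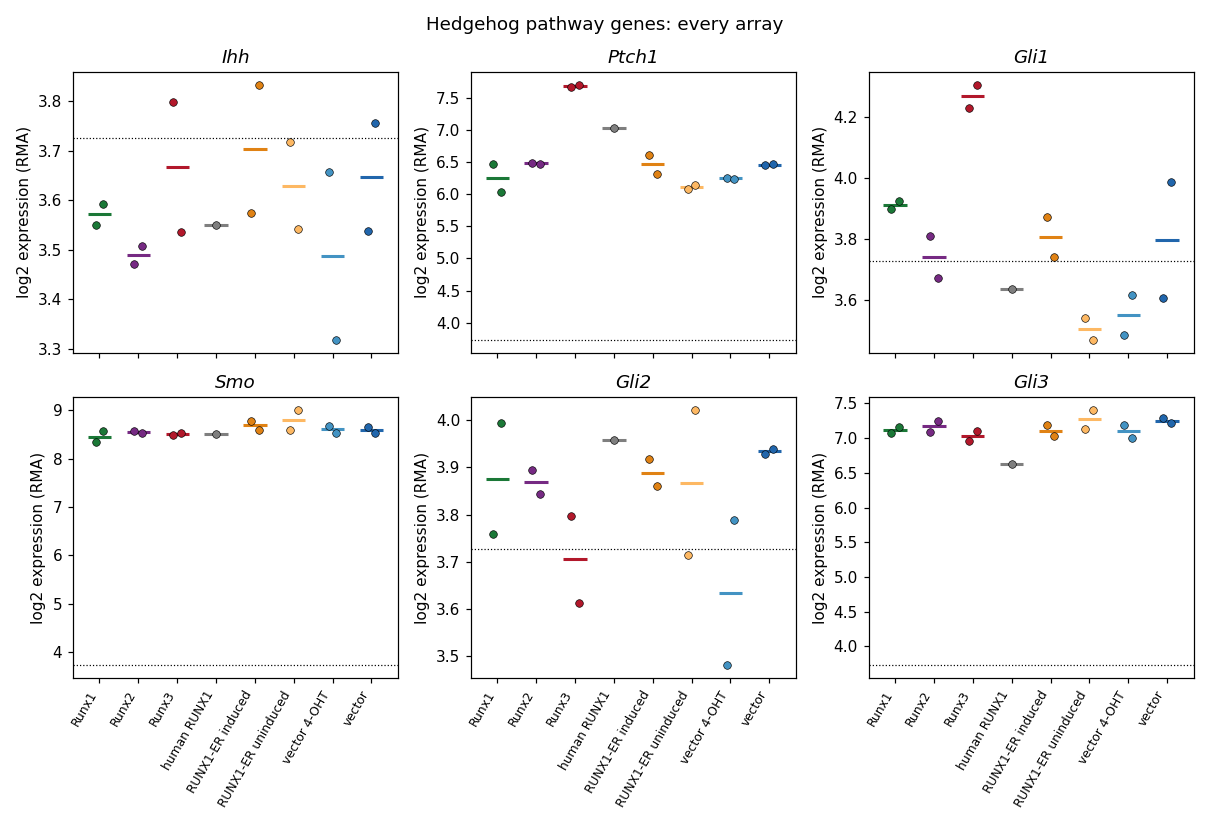
RMA log2 expression of 6 hedgehog pathway genes on each array (points) with the group mean (bar), with the same group order as in the plot of the responding genes and the median of all probe sets dotted. Each panel has its own vertical scale. Ptch1 and Gli1 are highest on the Runx3 arrays, and the group means of Ihh lie between 3.49 and 3.70.

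The lines were also set directly against each other. None of the 32 genes was called between the Runx2 and Runx1 lines, beside 1.5% of all genes, and 4 had an unadjusted p under 0.05, beside 11.1% of all genes. The Runx3 line was higher than the Runx1 line in Alpl and Mgp and lower in Phex (9.38%, beside 6.52% of all genes). The Phex difference was -0.59 (limma adjusted p = 0.0461) and was lost without any 1 of its 4 arrays, with adjusted p-values from 0.0837 to 0.274. Against the Runx2 line, the Runx3 line was higher in Alpl, Mgp, Comp and Gli1 (12.5%, beside 3.76% of all genes). The Alpl difference there was 0.46 (adjusted p = 0.0404) and was likewise lost without any 1 of its arrays, with adjusted p-values from 0.0548 to 0.254. The average of the 3 lines against vector called Sox9 and Phex, 6.25% of the 32 genes, beside 4.73% of all genes.

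Of the 4 epithelial markers, Krt8 and Cdh1 read higher in the Runx3 line, which also had the most skeletal genes called against vector. The mean level of Epcam, Krt8, Krt18 and Cdh1 was 4.89 to 4.90 on the Runx3 arrays, 4.02 to 4.21 on the Runx1 and Runx2 arrays and 3.83 to 3.86 on the vector arrays. Krt8 averaged 6.72 in the Runx3 line against 4.00 in vector cells, and Cdh1 4.21 against 2.87. The human RUNX1 array, also with higher Alpl, read 5.61 for Krt8 and 3.17 for Cdh1. Epcam averaged 5.00 against 4.97, and Krt18, 3.64 against 3.54, was dim. Their part in the rise of Alpl, Mgp or Gli1 was not tested.

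Outside the 35 genes, the wider list of 37 measured bone and cartilage genes had 4 calls in the Runx1 line (10.8%), 2 in the Runx2 line (5.41%) and 7 in the Runx3 line (18.9%), beside the same 1.7%, 2.57% and 9.37% of all genes. Most were lower in the Runx lines, with 3, 2 and 6 genes falling and 1, 0 and 1 rising. The median of the 37 was -0.10, -0.06 and -0.11. Zfp521, a zinc finger protein that restrains Runx2 in osteoblasts, read 7.10 and 6.84 in the Runx1 line, 6.83 and 6.76 in the Runx2 line and 5.88 and 6.16 in the Runx3 line, against 7.68 and 7.57 in vector cells. With this probe set all 6 arrays were below vector, the Runx3 arrays most. Its log2 differences were -0.66 (limma adjusted p = 0.0114), -0.84 (0.00155) and -1.61 (SE 0.12, 1.89e-06), and the first was lost without Runx1 replicate 2 (0.156), vector replicate 1 (0.123) or vector replicate 2 (0.0606). Its other probe set differed by -0.42, -0.64 and -0.60, called over all probe sets in the Runx2 and Runx3 lines and not lowest in Runx3. With the mean of both, the difference in the Runx3 line was -1.10. Twist2, a bHLH factor that holds back Runx2 activity in early skeletal cells, differed in the Runx2 line by -0.69 (SE 0.08, adjusted p = 0.000401). It averaged 8.11 there, against 8.81 in vector cells. It also fell in the Runx3 line, by 0.86 on the log2 scale (adjusted p = 1.82e-05), and for human RUNX1, by 0.49 (adjusted p = 0.0111).

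Trps1, a GATA-type repressor of chondrocyte maturation, averaged 7.26 in the Runx3 line against 8.16 in vector cells, a difference of -0.90 (SE 0.15, limma adjusted p = 0.00185). Its other probe sets differed there by -0.54, called over all probe sets, and by -0.48 and, in a dim one, -0.18, not called. The single human RUNX1 array differed from vector cells by -0.93 in Trps1. Vcan, the proteoglycan of immature cartilage and connective tissue, averaged 6.81 in the Runx1 line against 7.74 in vector cells, a difference of -0.93 (SE 0.12, adjusted p = 0.00121). In the Runx3 line Vcan differed by -0.87 (adjusted p = 0.000492) and in the Runx2 line by -0.20, not called. The single human RUNX1 array differed by -1.33. Another bright Vcan probe set differed by -0.65 and -0.82 in the Runx1 and Runx3 lines, both called over all probe sets. A further one, with a mean of 5.26, differed by -0.24 and -0.36, not called. With the mean of all 8 probe sets, several of them dim, the Vcan difference in the Runx1 line was -0.17 (adjusted p = 0.461). Atf4, the bZIP factor that osteoblasts need for amino acid import and for Bglap expression, read 10.9 on both Runx1 arrays against 10.2 and 10.1 in vector cells, a difference of 0.77 (SE 0.13, adjusted p = 0.00612). That call was lost without Runx1 replicate 2 (adjusted p = 0.0724) or vector replicate 2 (0.0857). On induction of RUNX1-ER beyond 4-OHT in vector cells, none of the 37 genes was called, beside 0.605% of all genes, and 5 had an unadjusted p under 0.05, beside 10.5%. Against uninduced cells alone, 1 of the 37 was called, Chst11, a chondroitin sulphotransferase, named after its value was seen. It read 7.68 and 7.84 in induced cells, against 8.29 and 8.57 in uninduced cells, a difference of -0.67 (limma adjusted p = 0.0105).

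**Figure D5:**
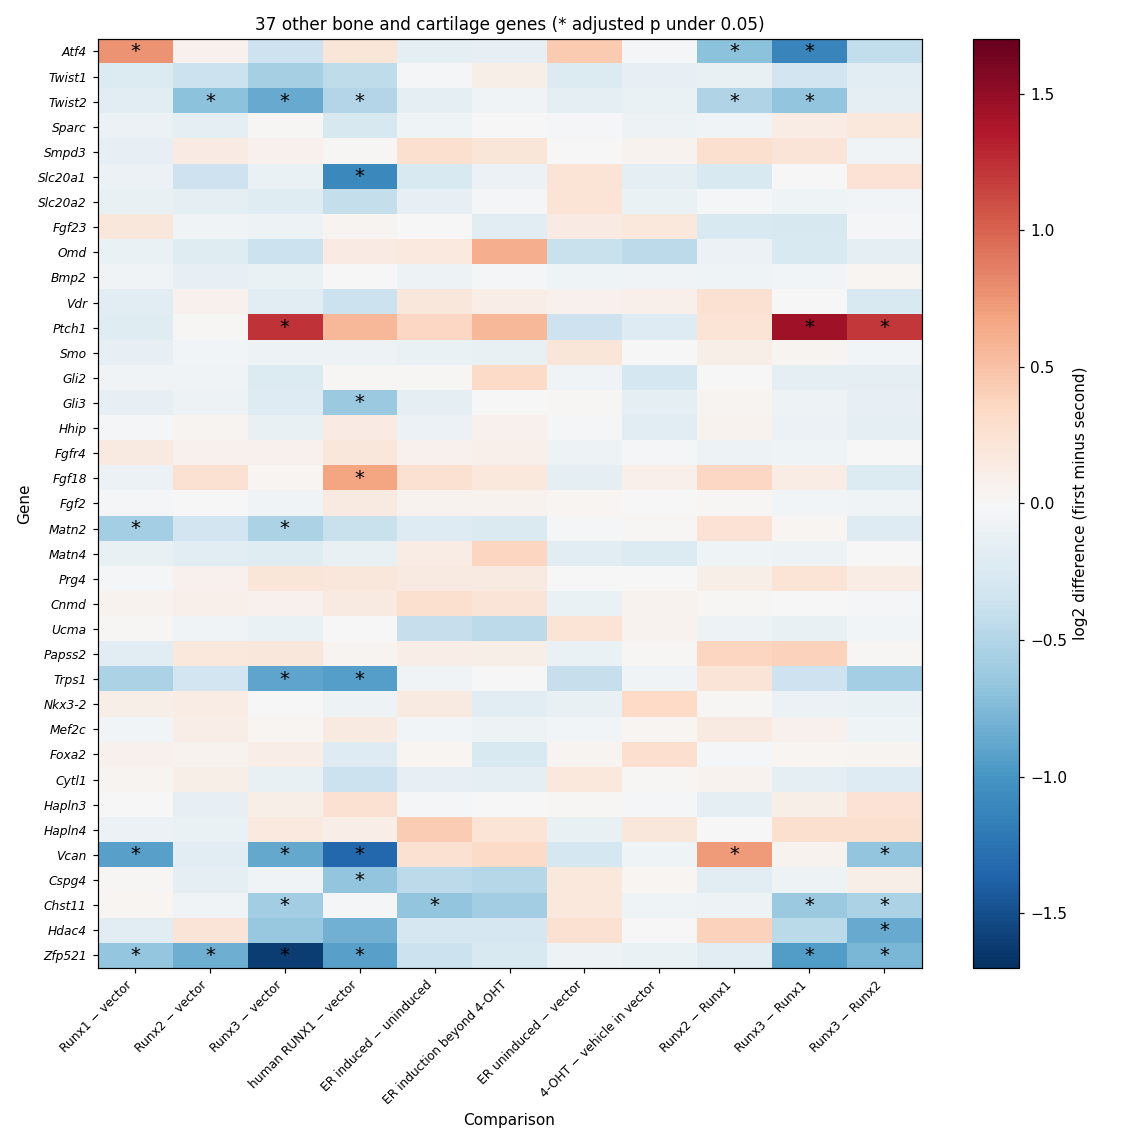
Log2 differences of the 37 other bone and cartilage genes (down the page) in 11 comparisons (across), first-named group minus second, with red higher in the first-named group and stars at an adjusted p under 0.05 over all genes. Zfp521 is lower in all 3 mouse Runx lines and for human RUNX1, and Ptch1 is highest in the Runx3 line.

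Promoter windows of 250 bases before to 50 bases after the start site were taken from RefSeq (GRCm38.p6) for 22 of the 32 measured genes and searched for the Runx core TGTGGT or TGCGGT on either strand, which reads ACCACA or ACCGCA from the other. It was present for 7 of the 22 genes (31.8%), beside 25% of all 27025 genes with a window. Counting the listed genes that were not measured, it was present for 10 of 25 (40%), with Spp1, Bglap and Enpp1 among them. The windows around each core are shown because these are the measured skeletal genes whose promoter window holds the letters Runx factors bind, and the capitals mark the core. Each is 30 bases, 5′ to 3′ on the gene's strand:
Chad, chr11:94564990-94565019, plus strand: tccgctgccaacTGCGGTcaaggctgccct
Dmp1, chr5:104202441-104202470, plus strand: agtcatttgagaACCACAagagctttttag
Hapln1, chr13:89540464-89540493, plus strand: tgggtgggggctTGTGGTtgggcctgctgc
Ihh, chr1:74951700-74951729, minus strand: acatggatagggTGCGGTctgcgcgggtcc
Matn1, chr4:130944239-130944268, plus strand: caaaggggccctTGTGGTcagctgcctcta
Mepe, chr5:104325199-104325228, plus strand: tagcagctttccACCACAaaacatttttag
Mepe, chr5:104325237-104325266, plus strand: taccatacccccTGTGGTcatctgtgggca
Sox6, chr7:115824786-115824815, minus strand: actgtgaggccgACCACAaagctccactgt
Sox6, chr7:115846186-115846215, minus strand: tactccctcctcTGTGGTgtgaatgtgcaa

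None of these 7 genes was called in any comparison, beside 17.7% of all genes called in at least 1, a count too small to read. Dmp1, Hapln1, Ihh and Matn1 were dim in every group. Mepe, with both cores in 1 window, differed from vector cells by 0.10, 0.16 and 0.10 in the Runx1, Runx2 and Runx3 lines. Of the 6 called genes, Phex and Alpl had a window, and neither held the core. The Phex window is shown because Phex, by its brightest probe set, had the largest fall against vector among the 32 measured genes. The base of the start site is in capitals:
Phex, chrX:157415237-157415536, minus strand: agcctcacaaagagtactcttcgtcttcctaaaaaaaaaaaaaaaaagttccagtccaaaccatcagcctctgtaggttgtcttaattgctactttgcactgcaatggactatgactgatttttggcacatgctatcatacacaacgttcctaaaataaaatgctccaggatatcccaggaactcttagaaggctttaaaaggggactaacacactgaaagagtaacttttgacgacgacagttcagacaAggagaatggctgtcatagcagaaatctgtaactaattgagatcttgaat

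A match of 6 letters is a description of the sequence and not a bound site, and its absence says only that these letters are not in the window. Mgp, Sox9, Gli1 and Comp, along with Sp7, Dlx3, Dlx5, Dlx6, Tnfrsf11b and Fgfr1, had no window in the table used.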

How the data were processed

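The deposited values are log2 expression of 15 Affymetrix arrays in 1 table. Per the labels' protocols, the authors scanned with GCOS and summarised and normalised with RMA in Bioconductor; their versions are not given in the sources used. RMA brings the probe intensities of all arrays to 1 distribution before probe sets are summarised, so array totals carry no depth. The summarised values need not share 1 distribution exactly. Precision is limited by how few arrays there are. The table was used as deposited, without further normalisation.

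Probe sets were named through the platform annotation: of 45101, 34945 carried 1 symbol, 932 several and 9160 none, and 64 were controls. Only probe sets with 1 symbol were used. This left 18193 genes, each read from its brightest probe set. One limma model (3.58.1, R 4.3.3) with a coefficient for each of 8 groups was fitted to all genes, with 7 residual and 5.65 prior degrees of freedom. Over 13 comparisons, p-values were adjusted by Benjamini-Hochberg over all genes within each comparison, at a threshold of 0.05. The human RUNX1 group has 1 array, and its spread is taken from the others. The script was tested on simulated data. Intervals are at 95%.

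The 35 genes and the wider lists were chosen with earlier results of these data known. A gene called in any comparison is given in full for at most 3 comparisons, those with the smallest adjusted p; others are given by level and counts; of the wider list, up to 3 called genes with the largest change per comparison with vector or 4-OHT induction are named. Alternatives were leaving out each replicate, a block for the replicate number, the mean of a gene's probe sets, genes with a mean above 5, repeated quantile normalisation, fits on the compared groups alone, an intensity trend with robust variance, and vector cells with 4-OHT as the control.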

Additional observations from a re-analysis of the deposited data

Results flagged for a closer look

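Several skeletal genes differed in their response between groups by a direct test in limma. Mgp changed more on induction of RUNX1-ER than with 4-OHT in vector cells, by a log2 difference of 1.17. The Runx3 line differed from the Runx1 line by 0.54 in Alpl, by -0.59 in Phex and by 1.34 in Mgp. It differed from the Runx2 line by 0.46 in Alpl, 1.41 in Mgp, 0.62 in Comp and 0.53 in Gli1. None of the 32 genes was called between the Runx2 and Runx1 lines.

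In the wider list, the Runx3 line differed from the Runx1 line by -1.12 in Atf4, -0.68 in Twist2, 1.44 in Ptch1 and -0.95 in Zfp521. It differed from the Runx2 line by 1.21 in Ptch1, -0.67 in Vcan and -0.77 in Zfp521. The Runx2 line differed from the Runx1 line by -0.70 in Atf4, -0.51 in Twist2 and 0.73 in Vcan. The adjusted p-values of these 10 differences ran from 2.34e-05 for Ptch1 between the Runx3 and Runx1 lines to 0.0145 for Atf4 between the Runx2 and Runx1 lines. The probe sets of these genes did not all move alike. Another Atf4 probe set differed by -0.91 between the Runx2 and Runx1 lines and by -1.46 between the Runx3 and Runx1 lines, both called over all probe sets, and a further one by -0.03 and -0.17, not called. The other Zfp521 probe set differed by -0.18 between the Runx3 and Runx1 lines and by 0.04 between the Runx3 and Runx2 lines, not called, and with the mean of both the difference from the Runx2 line was -0.37 (adjusted p = 0.0535). With the mean of its probe sets, Vcan differed by -0.14 between the Runx3 and Runx2 lines and by 0.11 between the Runx2 and Runx1 lines, neither called. The other Ptch1 probe sets differed from vector cells by 0.05 and 0.24 in the Runx3 line.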

How the results depend on the processing

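The alternatives were followed for the 6 skeletal genes called and for Ptch1, Zfp521, Twist2, Vcan, Atf4 and Trps1. Chst11 was not among them. No called change of these genes reversed under any alternative. Of their 56 changes called, 34 missed the threshold under at least 1 alternative, and 11 of their changes not called were called under one. The changes called under all alternatives run were these. Against vector they were Mgp, Phex, Sox9, Ptch1, Zfp521, Twist2 and Trps1 in the Runx3 line, Zfp521 and Twist2 in the Runx2 line, and Phex, Zfp521 and Twist2 for the average. In induced cells they were Mgp against uninduced cells and Mgp and Phex against vector cells with 4-OHT. Between lines they were Mgp and Ptch1 for Runx3 against both others, and Zfp521, Twist2 and Atf4 for Runx3 against Runx1.

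The counts of called genes among the 32 moved by over 1.5 times as follows, with every range for a left-out replicate. Smaller moves are not listed, and under them the count reached 4 for Runx1, 6 for Runx3, 3 for the average, 3 for human RUNX1 and 4 for Runx3 against Runx1. For Runx1 (3 genes), vector cells with 4-OHT as control gave 1, the compared groups alone 1, and leaving out a replicate 0 to 2, with 0 without Runx1 replicate 1 or vector replicate 1. For Runx2 (3 genes), the compared groups alone gave 0, with Phex at an adjusted p of 0.06, and leaving out a replicate 1 to 2, with 1 without either Runx2 replicate or vector replicate 1. For Runx3 (5 genes), genes with a mean above 5 gave 2, of only 6 tested, the compared groups alone 3, and leaving out a replicate 4 to 5. For the average of the lines (2 genes), the mean above 5 gave 1 and leaving out a replicate 1 to 2. For human RUNX1 (2 genes), the replicate block gave 1, the mean above 5 gave 1, the compared groups alone 0, and leaving out a vector replicate 1. For induction against uninduced cells (1 gene), the mean of probe sets gave 2, the mean above 5 gave 3, repeated quantile normalisation 2, the trend 3, and leaving out a replicate 1. For induction beyond 4-OHT (1 gene), leaving out a replicate gave 0 to 1, with 0 without vector replicate 1. For induced cells against vector cells with 4-OHT (3 genes) it gave 2 to 3. For uninduced cells against vector (1 gene), the mean of probe sets, the mean above 5 and the compared groups alone gave 0 each, and leaving out a replicate 0 to 1. For Runx2 against Runx1 (0 genes), the mean of probe sets, the mean above 5 and the trend gave 1 each, and leaving out a replicate 0 to 2. For Runx3 against Runx1 (3 genes), leaving out a replicate gave 1 to 2. For Runx3 against Runx2 (4 genes), the mean above 5 and the compared groups alone gave 1 each, and leaving out a replicate 1 to 2. 4-OHT in vector cells gave 0 under every alternative. The cause of these moves was not tested, except that fewer arrays or genes enter by construction.

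Replicate numbers did not pair the arrays: over 21 pairs of groups the correlation of their replicate differences ran from -0.16 to 0.25, and 5 were above 0.1. The replicate block ended 3 calls among the 32 genes: Alpl for human RUNX1 (adjusted p = 0.0502), Alpl for Runx3 against Runx2 (0.0563) and Phex for Runx3 against Runx1 (0.0555). Signal limits the dim genes: 9 of 32 were below the array's median in all groups, and their differences cannot be read.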
